A study of Homo sapiens with 12 samples.

Results

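The circadian clock genes examined here are 10 genes of the molecular clock, out of 60648 genes in the count table: PER1, PER2, PER3, NR1D1, NR1D2, DBP, TEF and CIART, which the clock drives through E-box elements in DNA, and BMAL1 (older symbol ARNTL) and NPAS2, which run in the opposite phase. They were chosen by name, with their levels in the 4 groups below already known, so these levels and the fold changes between groups are given as a description, without p-values. All 10 were among the 18289 genes that passed the filter on low counts. RNA was sequenced from poly-A selected libraries of HCT116, a human colon carcinoma cell line kept in DMEM with fetal bovine serum. The early wild type (labelled initial, time 0) and the late wild type (labelled final, after 2 months of culture) carry intact MTHFD2, a folate enzyme of mitochondria, whose nuclear form is the subject of the study's title. The early knock-out (time 0, just after it was made) and the late knock-out (after 2 months of culture) come from 1 clone edited with CRISPR-Cas9, so that the loss of MTHFD2 and other properties of that clone cannot be told apart. Each of the 4 groups has 3 libraries. The time of day, the cell density and the last change of medium at harvest are not given in the sources used here.

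In the mammalian clock, the proteins CLOCK (or its relative NPAS2) and BMAL1 pair and bind E-boxes, and so switch on the PER and CRY genes. PER and CRY proteins return to the nucleus and block that pair, which closes a loop of about a day. In another loop, the nuclear receptors NR1D1 and NR1D2 (REV-ERB alpha and beta) repress BMAL1 and NPAS2 through ROR elements, and DBP, TEF and HLF carry the rhythm on to other genes through D-boxes. In a rhythmic cell population, transcripts driven by E-boxes are therefore high when BMAL1 is low. Fresh serum, cAMP and glucocorticoids also switch on PER1 directly, and are used to set the phase of cultured cells.

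The promoter stretches below are printed because they hold the E-box or E-prime box of genes that were lower in the late than in the early knock-out (PER1, PER2, TEF, CRY1) and of genes with like elements that were not lower over that time (NR1D1, NR1D2, CIART). Sequences and start sites are from RefSeq (GRCh38.p14, the same chromosomes as the GRCh38 coordinates of the count table), read 5′ to 3′, and positions are counted from the start site, with -1 as the last base before it. Capitals mark every match to 1 of 5 motifs on either strand.

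PER1 (chr17:8152515-8152614, minus strand): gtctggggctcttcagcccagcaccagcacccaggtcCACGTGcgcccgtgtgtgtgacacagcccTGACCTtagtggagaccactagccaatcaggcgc

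PER2 (chr2:238288751-238288850, minus strand): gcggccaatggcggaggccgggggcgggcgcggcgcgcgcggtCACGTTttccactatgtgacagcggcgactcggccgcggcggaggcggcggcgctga

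TEF (chr22:41367215-41367314, plus strand): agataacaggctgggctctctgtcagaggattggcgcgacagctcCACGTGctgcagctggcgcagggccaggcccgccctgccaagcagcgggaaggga

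CRY1 (chr12:107093624-107093649, minus strand): cacacttcagaAACGTGaggtgccgg

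NR1D1 (chr17:40100726-40100809, minus strand): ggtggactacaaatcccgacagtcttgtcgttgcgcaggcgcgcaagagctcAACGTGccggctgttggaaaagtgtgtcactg

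NR1D2 (chr3:23945921-23946030, plus strand): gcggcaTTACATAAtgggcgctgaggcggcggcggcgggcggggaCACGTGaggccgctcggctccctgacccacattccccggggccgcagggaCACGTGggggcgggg

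CIART (chr1:150282414-150282513, plus strand): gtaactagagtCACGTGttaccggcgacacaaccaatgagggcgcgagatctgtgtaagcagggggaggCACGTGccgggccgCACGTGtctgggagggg

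The motifs were the E-box CACGTG, the E-prime box CACGTT, the D-box TTANGTAA, the core of the ROR element AGGTCA, and the cAMP response element TGACGTCA, and none of them matched at overlapping positions in the stretches shown. All 10 members matched a RefSeq promoter, with 14 start sites in all. In the 250 bases before the start, 4 members held an E-box, at position -173 in PER1, -195 and, before another start, -193 in TEF, -155 and -105 in NR1D2, and -129, -71 and -57 in CIART. An E-prime box lay at -197 in PER2 and at -168 in NR1D1, there read on the other strand as AACGTG. Among the 35116 RefSeq promoters, 6.34% held the E-box and 4.55% the E-prime box. Either element was present in 6 of the 10 members and in 5 of 10 other core clock factors with a promoter, so it did not set the members apart from those. Of the genes not shown, CRY2, PER3 and HLF were also lower in the late knock-out. CRY2 held an E-prime box, and PER3 and HLF held neither element in these bases. NR1D2 also held a D-box at -194. A D-box also lay before the first PER3 start, and 1.98% of all promoters hold one. PER1 had a ROR core (12.1% of all promoters), read on the other strand as TGACCT, and none of the members had the cAMP response element (1.65%). The windows of BMAL1, NPAS2 and DBP held none of the 5 motifs, which says only that these letters are not within those bases. CRY1 is no member and is shown for its E-prime box at -89, read on the other strand as AACGTG. Its stretch lies in an exon of GENCODE 29, whereas the other 6 stretches lie in none. Those of PER1, PER2 and NR1D2 lie inside the gene, upstream of an internal start.

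Library totals ran from 38597809 to 40017561 counts, and the members had between 20 and 5223 counts in a library. MTHFD2, the targeted gene, had 375 to 457 CPM (counts scaled by depth, with TMM-adjusted library totals) in the early wild type, 319 to 379 CPM in the late wild type, 128 to 146 CPM in the early knock-out and 123 to 155 CPM in the late knock-out, with no overlap between genotypes. The epithelial markers EPCAM, KRT8, KRT18 and CDH1 were at 107 CPM or more in each library, whereas VIL1 and KRT20, markers of mature colon epithelium, stayed below 1 CPM. Of the 5 tested epithelial markers, 2 were lower in the knock-out early (11.3% of all genes) and 4 late (10.2%). Over time edgeR called 0 in either genotype. DESeq2 called 0 in the wild type and 1 for the knock-out, where it called 1482 and 535 of 18289 genes. At an unadjusted edgeR p under 0.05 there were 0 and 3. The share of all genes at an unadjusted p is not given, so nothing is read from such counts, here or below. Of 5 markers of other cell types, PTPRC, COL1A2 and PECAM1 were below 1 CPM in each library. COL1A1 was lower and ACTA2 higher in the knock-out at both harvests. These were 2 of 3 tested markers, where 19.9% (early) and 18.5% (late) of all genes were called. Over time edgeR called 0 of the 3, where 6.47% (wild type) and 1.48% (knock-out) of all genes were called. At an unadjusted edgeR p under 0.05 there were 1 for the wild type and 2 for the knock-out, and DESeq2 called 1 and 0. ACTA2 had 0.54 (edgeR adjusted p 0.0588) in the wild type and 0.44 (adjusted p 0.162) for the knock-out. The sum of the 5 ran from 57.3 to 69.4, 62.3 to 81.1, 41.1 to 50.5 and 47.4 to 63.1 CPM in the early wild type, late wild type, early knock-out and late knock-out. The part of these markers in the levels of the members was not tested. On the second principal component (12% of the variance) the early wild-type replicate 1 stood apart from its group, at 36.6 against 4.37 and 18.2.

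Per length, NR1D1 was the most abundant member, with a mean of 33.8 CPM per kilobase of exon over the 12 libraries, and its lowest library (28.7) lay above the highest of any other member. NR1D2 (18) and PER1 (15.7) came next with overlapping ranges, followed by TEF (10.3), whose range overlapped that of PER1. DBP (4.19), PER2 (3.98), BMAL1 (2.63), NPAS2 (1.75) and PER3 (1.08) followed by mean, each with a range that overlapped that of its neighbour in this row. CIART was lowest at 0.302 CPM per kilobase, so its values carry more counting error than those of the other members. All further levels are CPM without the length, for comparison of 1 gene between libraries.

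The PER genes, which encode the repressors that close the main loop, were all at their lowest or near it in the late knock-out. PER1 (ENSG00000179094.16, GRCh38 chromosome 17, 8140472 to 8156506) had 122, 119 and 118 CPM in the early wild type, 142, 125 and 114 CPM in the late wild type, 123, 117 and 119 CPM in the early knock-out, and 71.1, 71.7 and 74.2 CPM in the late knock-out. The 3 late knock-out libraries lay below all 9 others, which overlapped each other. The late knock-out (72.4 ± 1.65, SD, n = 3) was thus at 60.6% of the early knock-out (119 ± 3.24; log2 fold change -0.72, SE 0.0811) and at 57% of the late wild type (127 ± 14.1; -0.81, SE 0.0812). In the wild type, PER1 differed by 0.08 (SE 0.0803) between harvests, within the spread of the libraries. These are bulk samples, in which fewer cells with a transcript and less of it per cell cannot be told apart.

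PER2 (ENSG00000132326.12, chromosome 2, 238244044 to 238290102) separated all 4 groups. It had 33.5, 28.7 and 31.6 CPM in the early wild type, 24.3, 24.9 and 25.1 CPM in the late wild type, 38.1, 37.4 and 36.3 CPM in the early knock-out, and 16.2, 15.7 and 16.9 CPM in the late knock-out. It was thus highest in the early and lowest in the late knock-out, with the wild type between them and no overlap between any of the groups. The late level was 43.7% of the early level in the knock-out (-1.20, SE 0.0811) and 79.2% in the wild type (-0.34, SE 0.0796). The genotype difference turned from 0.25 (SE 0.0788) at the early harvest to -0.60 (SE 0.0813) at the late harvest.

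PER3 (ENSG00000049246.15, chromosome 1, 7784291 to 7845177), the least abundant of the PER genes, had 10.5, 6.6 and 9.34 CPM in the early wild type, 6.46, 7.82 and 7.01 CPM in the late wild type, 12.4, 12.7 and 12.7 CPM in the early knock-out, and 6.82, 7.17 and 5.93 CPM in the late knock-out. The early knock-out stood above all other libraries, and the late knock-out overlapped the wild type. The log2 fold change between harvests was -0.92 (SE 0.143) in the knock-out and -0.31 (SE 0.144) in the wild type.

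**Figure D1:**
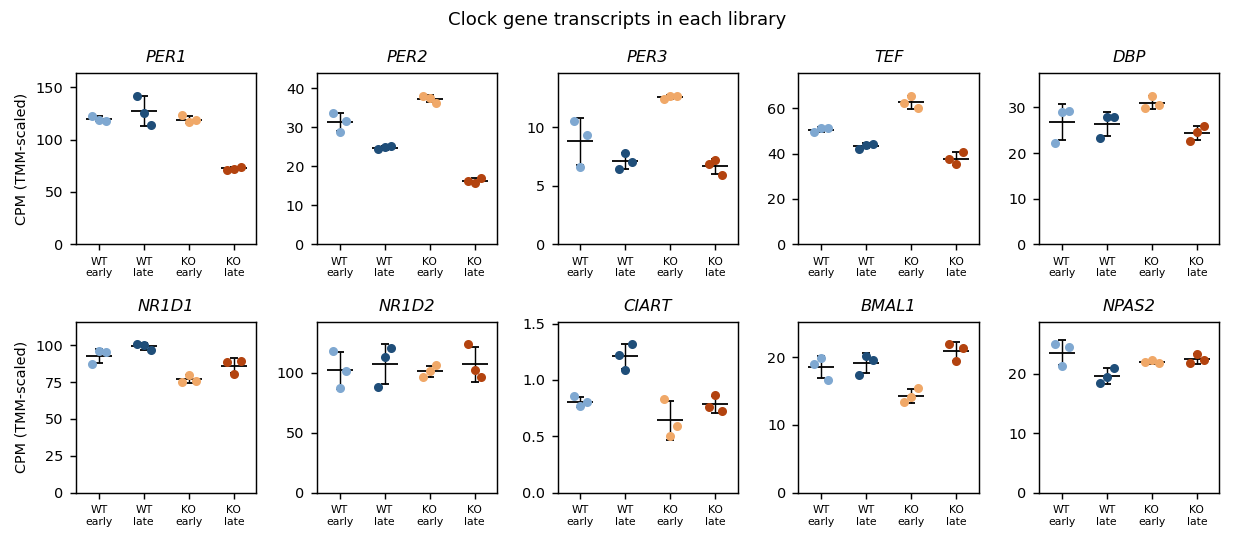
Level of each of the 10 members in CPM (TMM-scaled, linear axis from 0) in each of the 12 libraries; points are libraries, the horizontal mark is the group mean and the bar is the SD (n = 3). PER1, PER2 and TEF are lowest in the late knock-out, BMAL1 is lowest in the early knock-out, and NR1D2 overlaps in all groups.

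Of the D-box factors, TEF followed the PER genes and DBP did so only in part. TEF (ENSG00000167074.15, chromosome 22, 41367333 to 41399326) had 49.3, 51.1 and 51.4 CPM in the early wild type, 42, 44 and 44.1 CPM in the late wild type, 62.4, 65.6 and 59.9 CPM in the early knock-out, and 37.6, 35.3 and 40.7 CPM in the late knock-out. As with PER2, none of its groups overlapped, and the order was the same: early knock-out, early wild type, late wild type, late knock-out. The change between harvests was -0.73 (SE 0.0765) in the knock-out and -0.22 (SE 0.0762) in the wild type. DBP (ENSG00000105516.11, chromosome 19, 48630030 to 48637379) had 31 ± 1.45 CPM in the early and 24.4 ± 1.58 CPM in the late knock-out (-0.34, SE 0.109), groups that did not overlap. In the wild type, DBP had 26.9 ± 3.95 CPM at the early and 26.4 ± 2.67 CPM at the late harvest, with overlapping libraries.

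The REV-ERB genes did not follow the PER genes. NR1D1 (ENSG00000126368.6, chromosome 17, 40092793 to 40100589) had 87.1, 96.2 and 95.3 CPM in the early wild type, 101, 99.9 and 96.7 CPM in the late wild type, 75.4, 80.1 and 75.8 CPM in the early knock-out, and 88.6, 80.2 and 89.6 CPM in the late knock-out. Knock-out levels were below wild-type levels at both harvests, by -0.27 (SE 0.0743) and -0.21 (SE 0.0742). The values over time were 0.10 in the wild type and 0.16 for the knock-out. NR1D2 (ENSG00000174738.13, chromosome 3, 23945286 to 23980617) ranged from 87.1 to 124 CPM with overlap in all comparisons, and its 4 fold changes lay between -0.02 and 0.09 with an SE of 0.127. CIART (ENSG00000159208.16, chromosome 1, 150282543 to 150287093), a repressor of the CLOCK and BMAL1 pair, had 0.807 ± 0.0447, 1.21 ± 0.113, 0.64 ± 0.172 and 0.783 ± 0.0738 CPM in the early wild type, late wild type, early knock-out and late knock-out. It was highest in the late wild type, at 1.09 to 1.32 CPM, and the late knock-out lay below that group by -0.63 (SE 0.204). Without the early knock-out replicate 1, the late against early value of CIART in the knock-out moved from 0.29 to 0.52.

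BMAL1 ran opposite to the PER genes in the knock-out. BMAL1 (ENSG00000133794.20, chromosome 11, 13276652 to 13387266) had 19, 19.9 and 16.7 CPM in the early wild type, 17.4, 20.2 and 19.6 CPM in the late wild type, 13.4, 14.2 and 15.4 CPM in the early knock-out, and 22, 19.4 and 21.4 CPM in the late knock-out. The early knock-out lay below all other libraries. The difference between harvests was 0.55 (SE 0.0981) in the knock-out, where the late level was 146% of the early one, and 0.04 (SE 0.0974) in the wild type. NPAS2 (ENSG00000170485.17, chromosome 2, 100820139 to 100996829) did not share this: it had 21.9 ± 0.233 and 22.4 ± 0.832 CPM in the early and late knock-out (0.03, SE 0.0871), and 23.5 ± 2.08 and 19.6 ± 1.28 CPM in the wild type (-0.26, SE 0.0873).

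To set the arms of the clock side by side, each member was centred on its mean log2 CPM over the 12 libraries, and the mean of BMAL1 and NPAS2 was subtracted from the mean of the 8 E-box driven members. This difference was -0.03, -0.06 and 0.07 in the early wild type, 0.15, 0.08 and 0.05 in the late wild type, 0.39, 0.30 and 0.25 in the early knock-out, and -0.40, -0.38 and -0.41 in the late knock-out. The wild-type harvests overlapped near 0, while the knock-out harvests lay on either side of all wild-type libraries. The group means were -0.01 ± 0.07, 0.09 ± 0.05, 0.31 ± 0.07 and -0.40 ± 0.02 (SD, n = 3), so that the change between harvests was -0.71 in the knock-out and 0.10 in the wild type. With BMAL1 alone in the second arm the knock-out value was -0.97, and with NPAS2 alone it was -0.45. Of the 8 E-box driven members, NR1D1, NR1D2 and CIART had values above 0 over time in the knock-out (0.16, 0.09 and 0.29), against the sign of the mean.

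**Figure D2:**
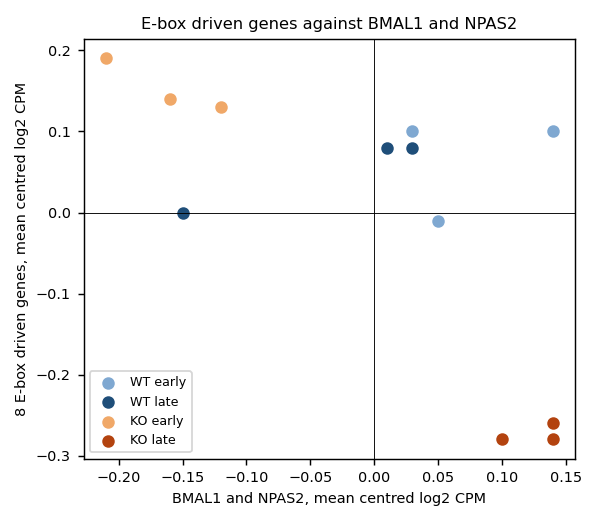
Mean centred log2 CPM of the 8 E-box driven members (vertical) against that of BMAL1 and NPAS2 (horizontal), with 1 point per library and both axes relative to the mean of all 12 libraries. The early knock-out libraries lie at 0.13 to 0.19 on the vertical axis and the late ones at -0.28 to -0.26, with the wild type between them.

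In edgeR's quasi-likelihood fit of all genes, a gene was called at a Benjamini-Hochberg adjusted p under 0.05. Over time in the knock-out, 4 of the 10 members were called lower (PER1, PER2, PER3 and TEF) and 1 higher (BMAL1), where 0.64% and 0.837% of all tested genes were called lower and higher (1.48% in all). Over time in the wild type, 1 member (PER2) was called lower (3.42% of all genes) and 0 higher (3.05%; 6.47% in all). At the early harvest, PER2, PER3 and TEF were called higher in the knock-out (8.55% of all genes) and NR1D1 and BMAL1 lower (11.3%). At the late harvest, PER1, PER2 and CIART were called lower (10.2%) and 0 members higher (8.38%). The interaction of genotype and time, which is the genotype difference at the late harvest minus that at the early harvest, was called lower for PER1 (-0.80), PER2 (-0.86) and TEF (-0.51), against 0.476% of all genes, and for 0 members higher (0.809%). Groups did not overlap for 6 members between genotypes at the early harvest (35.5% of all genes) and 6 at the late harvest (33.1%), and over time for 5 wild-type (22.2%) and 7 knock-out (23.2%) comparisons of members. The members were chosen with these same contrasts in view, so nothing is read from these counts. The comparisons over time and those between genotypes share libraries and are not independent of each other. BMAL1 was not called over time in the knock-out when the early knock-out replicate 1, the early knock-out replicate 2 or the late knock-out replicate 1 was left out. The 4 lower calls were kept without each of the 12 libraries, as were PER1 and PER2 at the late harvest and in the interaction. All these fits reuse the values that were known when the members were chosen. A call of a member that was kept is therefore no support for it. The interaction of TEF was not called without 8 of the libraries, the exceptions being the wild-type replicate 1 of both harvests, the early wild-type replicate 2 and the late knock-out replicate 3. CIART was not called without any of the 3 libraries of either late group, the early knock-out replicate 3 or the early wild-type replicate 3. Nor was CIART called by DESeq2 (which called NR1D1 lower), with no filter on low counts or in the fit of only the libraries compared. PER2 in the wild type was not called without the early replicate 1 or 3 or the late replicate 2 or 3. Some calls were gained. DESeq2 called BMAL1 higher in the interaction and NPAS2 lower over time in the wild type. DBP was called lower over time in the knock-out in the fit of only the libraries compared and without the early wild-type replicate 1. Without the early wild-type replicate 2, PER3 and NPAS2 were called lower over time in the wild type and NR1D1 lower at the late harvest. At the early harvest, each of the 5 calls was lost without at least 1 library. NR1D1 alone was called without the knock-out replicate 2. PER3 and TEF were left without the knock-out replicate 1, and TEF and BMAL1 without the knock-out replicate 3. PER3, TEF and BMAL1 were left without the wild-type replicate 3, and all but PER2 without the wild-type replicate 2.

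**Figure D3:**
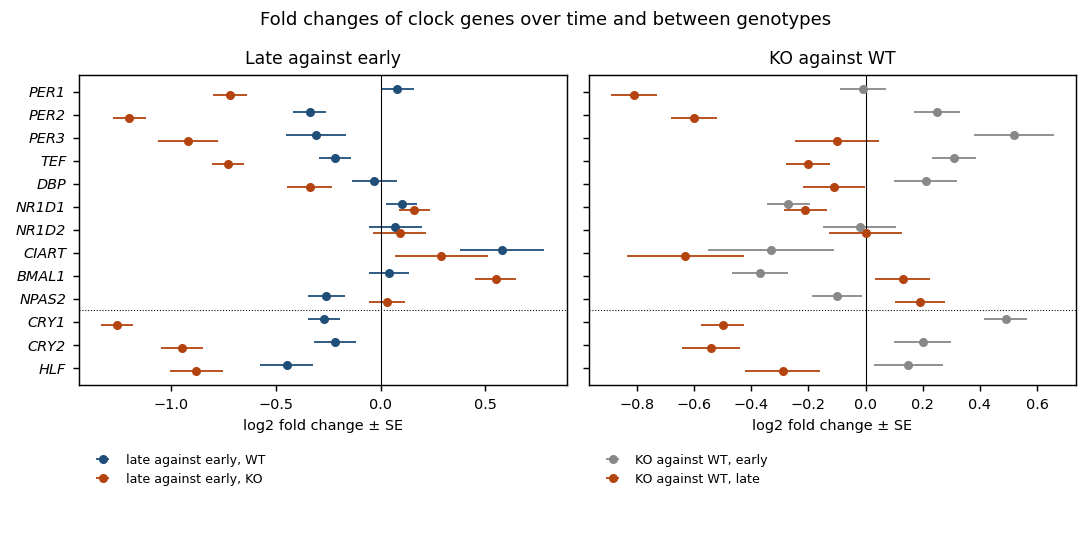
log2 fold change ± SE (edgeR) of the 10 members and, below the dotted line, of CRY1, CRY2 and HLF, for late against early (left, wild type and knock-out) and knock-out against wild type (right, early and late harvest). In the knock-out over time, PER2 at -1.20 and CRY1 at -1.26 lie farthest to the left, while BMAL1 lies at 0.55.

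The other transcription factors and repressors of the clock were tested in the same fit, since the rule for the members did not use them, although the list was drawn up with earlier results known. Of the 11 listed, 9 were tested; RORA had at most 22 counts in a library and RORB at most 1. Over time in the knock-out, 3 of the 9 fell (CRY1, CRY2 and HLF) and 0 rose, against 0.64% and 0.837% of all genes, and the median log2 fold change of the 9 was -0.47 against 0.00 for all genes. In the wild type, CRY1 and HLF fell (2 of 9, 3.42% of all genes), with a median of -0.21 against 0.01.

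CRY1, the partner of the PER proteins in repression, had 27.3, 27.4 and 28.9 CPM in the early wild type, 23.9, 23.2 and 22.3 CPM in the late wild type, 40.3, 39.7 and 37.6 CPM in the early knock-out, and 16.2, 16.1 and 16.7 CPM in the late knock-out. No groups overlapped, in the same order as for PER2 and TEF. CRY1 (ENSG00000008405.12, chromosome 12, 106991364 to 107093549) fell to 41.7% in the knock-out (-1.26, SE 0.0763, edgeR adjusted p 3.17e-07). In the wild type it fell to 83% (-0.27, SE 0.0752, adjusted p 0.0433), a call that held without the early wild-type replicate 2 or the late wild-type replicate 1 and was lost without each of the other 10 libraries (adjusted p up to 0.196). It was higher in the knock-out at the early harvest (0.49, adjusted p 1.64e-04) and lower at the late harvest (-0.50, adjusted p 1.80e-04), and the interaction was -0.99 (SE 0.107, adjusted p 1.04e-04).

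CRY2 (ENSG00000121671.12, chromosome 11, 45847118 to 45883248) had 38.1, 32.5 and 34.5 CPM in the early wild type, 33.3, 30.4 and 26.6 CPM in the late wild type, 44.6, 39.1 and 36.7 CPM in the early knock-out, and 21.1, 21.1 and 19.99 CPM in the late knock-out. The late knock-out lay below all other libraries. CRY2 fell to 51.6% in the knock-out (-0.95, SE 0.101, edgeR adjusted p 7.23e-05), with a wild-type value of -0.22 (adjusted p 0.232) and an interaction of -0.74 (SE 0.142, adjusted p 0.0144). Without the early wild-type replicate 3, the adjusted p of this interaction was 0.0516. HLF, the third D-box factor, went from 4.98 ± 0.424 to 2.69 ± 0.224 CPM in the knock-out (-0.88, SE 0.128, edgeR adjusted p 0.00154) and from 4.48 ± 0.217 to 3.29 ± 0.333 CPM in the wild type (-0.45, adjusted p 0.0459, lost without each of 9 libraries, up to 0.184, and kept without the early wild-type replicate 2 or the late knock-out replicate 2 or 3). Its interaction was -0.44 (adjusted p 0.319), so the fall was not shown to differ between genotypes.

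**Figure D4:**
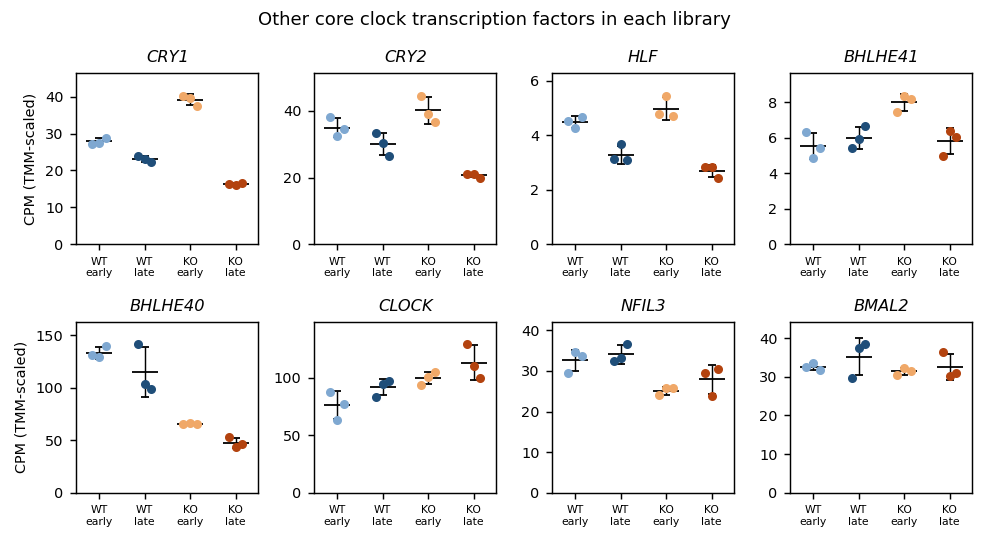
Level in CPM (TMM-scaled, linear axis from 0) of 8 tested core clock factors that are not members, in each of the 12 libraries; points are libraries, the mark is the group mean and the bar is the SD (n = 3). CRY1, CRY2 and HLF are lowest in the late knock-out, while BHLHE40 is lower in both knock-out groups than in both wild-type groups.

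Other core factors differed between genotypes. BHLHE40, a repressor that competes for E-boxes, was below the wild type in the knock-out, both at the early harvest (65.8 ± 0.731 against 133 ± 5.94 CPM; -1.02, edgeR adjusted p 9.52e-06) and at the late harvest (47.5 ± 4.98 against 115 ± 23.8 CPM; -1.28, adjusted p 7.59e-07), with -0.47 over time in the knock-out (edgeR adjusted p 0.0602). That change was called by DESeq2 (adjusted p 0.0155), with no filter on low counts (5.82e-04) and in the fit of only the libraries compared (0.0022). BHLHE41 was higher in the early knock-out (0.53, edgeR adjusted p 0.00836) and had -0.05 (adjusted p 0.859) at the late harvest, a change that did not pass the test (interaction -0.58, adjusted p 0.177). Over time in the knock-out, BHLHE41 had -0.46 (edgeR adjusted p 0.0997). That value was called by DESeq2 (adjusted p 0.0362) and in the fit of only the libraries compared (0.0328). At the early harvest CLOCK was higher (0.39, adjusted p 0.0261) and NFIL3, a repressor at D-boxes, was lower (-0.38, adjusted p 0.0143), with 0.30 (adjusted p 0.0874) and -0.29 (edgeR adjusted p 0.0568) at the late harvest. Both early calls were lost when single libraries were left out: for CLOCK without the early knock-out replicate 2 or 3 or the early wild-type replicate 2 or 3 (adjusted p up to 0.103), and for NFIL3 without the early knock-out replicate 1 or the early wild-type replicate 3 (up to 0.071). The late values were called in some alternatives, for CLOCK with no filter on low counts (edgeR adjusted p 0.0392) and for NFIL3 by DESeq2 (0.0497). Both were also called without the late knock-out replicate 3 or the early wild-type replicate 1 or 2. BMAL2 did not pass in any comparison, with values from -0.11 to 0.11. At the early harvest, 3 of the 9 were higher and 3 lower (8.55% and 11.3% of all genes, median 0.15), and at the late harvest 0 were higher and 4 lower (8.38% and 10.2%, median -0.29).

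The enzymes and cofactors that act on clock proteins, such as the casein kinases CSNK1D and CSNK1E and the PER ligase subunit BTRC, were mostly not called. Of 28 tested, edgeR's quasi-likelihood test called 0 over time in either genotype, where 6.47% (wild type) and 1.48% (knock-out) of all genes were called. With shares this low, 0 of 28 is not read as a trait of these genes. DESeq2 called 0 for the wild type and 2 for the knock-out, where it called 1482 and 535 of 18289 genes. At an unadjusted edgeR p under 0.05 there were 3 and 4, without a share over all genes beside them. At the early harvest WDR5 was higher (0.22, edgeR adjusted p 0.0409) and the corepressor NCOR1 lower (-0.29, adjusted p 0.0181), 2 of 28 where 19.9% of all genes were called. Both were lost without the early wild-type replicate 1 or 3 or the early knock-out replicate 2 or 3 (adjusted p up to 0.154 and 0.089). WDR5 was lost without 5 further libraries, the early knock-out replicate 1, the late knock-out replicate 1 and 3 and the late wild-type replicate 2 and 3. At the late harvest 1 of 28 was called, against 18.5% of all genes. PRKAA2, a catalytic subunit of the AMP kinase that marks CRY for breakdown, was higher (0.95, edgeR adjusted p 0.00121), at 17.7 ± 2.77 against 9.17 ± 1.24 CPM.

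Of 14 output genes that cycle in many tissues, 1 fell over time in the knock-out, against 0.64% of all genes (TSPAN4, -0.54, edgeR adjusted p 0.016; 0.0942, 0.0747 and 0.097 without the early knock-out replicate 1, the early knock-out replicate 2 and the late knock-out replicate 1). TSC22D3 was the 1 that fell in the wild type, from 48.6 ± 1.06 to 29.1 ± 4.74 CPM (-0.74, edgeR adjusted p 2.53e-04, against 3.42% of all genes). Between genotypes, 6 were lower and 1 higher at the early harvest (11.3% and 8.55% of all genes). At the late harvest 7 were lower (10.2%). TSC22D3, a leucine zipper protein induced by glucocorticoids, was lower by -1.38 and -0.84 (edgeR adjusted p 6.82e-08 and 1.72e-05), and the transcription factor KLF10 by -0.59 and -0.75 (adjusted p 7.75e-05 and 6.62e-06). The medians of the 14 were -0.21 and -0.30 between genotypes and 0.03 (wild type) and -0.14 (knock-out) over time.

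Over these 3 lists of clock genes that are not members, 4 of 51 tested genes fell over time in the knock-out and 0 rose, and 3 fell in the wild type, where 0.64% and 3.42% of all genes fell. Between genotypes, 15 of 51 were called at the early harvest (5 higher, 10 lower) and 12 at the late harvest (1 higher, 11 lower), against 19.9% and 18.5% of all genes. CRY1 and CRY2 were the 2 of 51 with an interaction past the threshold (1.28% of all genes).

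Genes that respond to serum and cAMP, as PER1 does apart from the clock, were mostly lower in the knock-out at both harvests, where PER1 had -0.01 (SE 0.0803) at the early and -0.81 (SE 0.0812) at the late harvest. Of 15 immediate early and cAMP response genes, 10 were called lower at the early and 10 at the late harvest in the knock-out (11.3% and 10.2% of all genes), with medians of -0.95 and -1.02 (0.00 and -0.00 for all genes). NR4A2 was lower by -1.47 (edgeR adjusted p 3.49e-05) and EGR3 by -2.16 (adjusted p 2.52e-04) at the early harvest, and JUNB by -1.29 (adjusted p 9.19e-06) at the late harvest. Over time in the knock-out, edgeR called 1 of the 15, which was lower, where it called 0.64% of all genes lower. DESeq2 called 1 of the 15, where it called 535 of 18289 genes in either direction. At an unadjusted edgeR p under 0.05 there were 8, in either direction and without a share over all genes beside them. The edgeR call was JUN (-0.92, adjusted p 0.0398, lost without any early knock-out library, the late knock-out replicate 2 or 3, the early wild-type replicate 3 or the late wild-type replicate 2, up to 0.153), and the median of the 15 was -0.34. This JUN call was also lost in edgeR with at least 1 CPM in 3 libraries (0.0543) and with no filter on low counts (0.259). In the wild type 2 of the 15 were called lower over time (3.42% of all genes). They were JUN (-0.73, edgeR adjusted p 0.0466) and EGR3 (-1.42, adjusted p 0.0152). The former call was lost without 8 libraries (up to 0.211) and the latter without the early replicate 1 or the late replicate 2 or 3 (up to 0.109). JUN was also not called by DESeq2 (adjusted p 0.106) or in the edgeR fit of only the libraries compared (0.0853). Nor was it called with at least 1 CPM in 3 libraries (0.0565) or with no filter on low counts (0.31), and with no filter EGR3 was not called (0.198). The summed level of the 15 ran from 2237 to 2501 CPM in the early and 1564 to 2734 CPM in the late wild type, and from 1050.3 to 1312 CPM in the early and 817 to 1353 CPM in the late knock-out. The sums of the knock-out harvests overlapped, while 6 of the 15 genes did not overlap between them, against 23.2% of all genes. FOS was higher at the late harvest, and JUN, JUNB, EGR1, EGR2 and IER2 were lower. FOS had 0.66 (edgeR adjusted p 0.144), EGR1 -0.76 (adjusted p 0.0716) and EGR2 -1.26 (adjusted p 0.0628). Of 8 tested targets of the glucocorticoid receptor, 4 were lower in knock-out libraries at each harvest (TSC22D3, SGK1, KLF9 and ERRFI1), against 11.3% and 10.2% of all genes. Over time in the knock-out edgeR called 0 (1.48% of all genes), and DESeq2 called 1 (535 of 18289 genes). At an unadjusted edgeR p under 0.05 there were 2, without a share over all genes beside them. TSC22D3 and NFKBIA fell in the wild type (2 of 8, 3.42% of all genes), the latter by 0.35 on the log2 scale (edgeR adjusted p 0.032, up to 0.183 with 1 library left out). Of 6 tested temperature response genes, HSPA8 was higher in the early knock-out (0.51, edgeR adjusted p 0.00288) and HSPH1, a heat shock chaperone, was lower in the late knock-out (-0.72, adjusted p 1.75e-06). HSPH1 rose in the wild type (0.28, edgeR adjusted p 0.0251, lost without replicate 1 or 3 of either wild-type harvest, up to 0.115). It had -0.25 (edgeR adjusted p 0.105) in the knock-out, with an interaction of -0.53 (adjusted p 0.0135). RBM3 fell over time in the wild type (-0.31, edgeR adjusted p 0.0457) and CIRBP was higher in the late knock-out (0.22, adjusted p 0.047), calls that were each lost without 10 of the 12 libraries. DNAJB1 fell over time in the knock-out (-0.52, edgeR adjusted p 0.016; 0.0912, 0.087 and 0.0905 without the early knock-out replicate 2, the early knock-out replicate 3 and the late knock-out replicate 2). The part of these genes in the levels of the members was not tested.

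Genes with the most similar course were sought among the 12528 tested genes whose mean log2 CPM reached 1, by Pearson correlation over the 12 libraries, which share 4 groups and so are not independent points. For this, each of the 8 E-box driven members was centred and also divided by its SD before the mean was taken. Closest to that mean were GFOD2 (r = 0.927), PDE4A (0.922), KRBOX4 (0.892) and MARK3 (0.882). GFOD2 had 25.6 ± 0.767, 25.7 ± 0.131, 26 ± 0.212 and 19.9 ± 0.874 CPM in the early wild type, late wild type, early knock-out and late knock-out. Closest to BMAL1 were LINC00886 (r = 0.969), SCAT1 (0.916), LINC02454 (0.890) and FHIT (0.886). LINC00886, a noncoding RNA on chromosome 3, had 2.44 ± 0.262, 2.76 ± 0.278, 1.69 ± 0.107 and 2.96 ± 0.31 CPM in the same order. CRY1 and CRY2 were looked up after their values were seen. CRY1 had r = 0.817 with the E-box mean and -0.884 with BMAL1, and CRY2 had 0.844 and -0.803.

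Because the use of strand in the counting is not stated, reads of a gene on the other strand could be counted for a member. THRA overlaps NR1D1 on the other strand with 57.2 to 64 CPM as group means, which is of the size of NR1D1 itself, and its 4 fold changes were between -0.08 and 0.15. NKIRAS1 overlaps NR1D2 at 18.5 to 20.6 CPM, SPHK2 overlaps DBP at 11.4 to 13.3 CPM, and UTS2 overlaps PER3 at 0.758 to 2.02 CPM, with values over time in the knock-out of -0.03, -0.06 and 0.03. For PER1, PER2, TEF, BMAL1 and NPAS2, each overlapping gene was below 1 CPM in every group mean, and CIART has none.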

How the data were processed

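Counts per gene were deposited by the authors as raw counts, 1 column per library, without normalization; per the submitters' processing notes, STAR, featureCounts (Subread) and hg38 were used. The annotation release, strand setting and handling of multi-mapping reads are not given in the sources used here. The 5 lines of a broken spreadsheet entry were left out, 0 other sample columns were present, and symbols were found for 60506 of 60648 genes. Of the gene IDs, 37318 occur with the same version in GENCODE 29, all at the same GRCh38 position. CSNK2B, HSPA1A and HSPA1B are listed at 0 in all libraries and were not tested.

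Genes were kept with filterByExpr (18289), scaled with TMM and fitted with a mean per group over 12 libraries in edgeR 4.0.16 (limma 3.58.1, R 4.3.3; quasi-likelihood, robust), with Benjamini-Hochberg adjustment over all genes tested; log2 CPM used a prior count of 2. The common coefficient of variation was 9.77%. The fit was tested on simulated data. P-values measure the spread between these libraries, and the knock-out libraries share 1 clone. Alternatives were DESeq2 1.42.0, its size factors, other filters, fits of single pairs of groups, a replicate block and leaving out each library. No set test was run.

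The members and lists were chosen with earlier results of these data known. The genes named are the 10 members, MTHFD2, the tested genes of the core clock list, up to 3 genes with the smallest adjusted p under 0.05 per other list, comparison and direction, and the 4 genes most alike to the E-box mean and to BMAL1; other members of the lists are named in counts, and some genes that the rule names are not reported here.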

Additional observations from a re-analysis of the deposited data

Results flagged for a closer look

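Of the genes in the lists above that are not members, 3 were called in the interaction term of edgeR's quasi-likelihood model. Their genotype difference thus changed between harvests, as it did for 1.28% of all tested genes. For CRY1 the difference at the late harvest minus that at the early harvest was -0.99 on the log2 scale (adjusted p 1.04e-04), for CRY2 it was -0.74 (adjusted p 0.0144), and for HSPH1 it was -0.53 (adjusted p 0.0135). The CRY2 call was lost without the early wild-type replicate 3 (adjusted p 0.0516), and the HSPH1 call without that library (0.0546) or the early knock-out replicate 3 (0.0585).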

How the results depend on the processing

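Counts of calls depended on the setting. Leaving out 1 library gave 2423 to 4615 genes called for the genotype at the early harvest (3635 with all), 2561 to 3895 at the late harvest (3391), 627 to 1399 over time in the wild type (1183), 94 to 463 over time in the knock-out (270) and 124 to 444 for the interaction (235). The lowest counts over time and for the interaction came without the late wild-type replicate 3 (627) and the early knock-out replicate 3 (94 and 124), the highest without the early wild-type replicate 2, and 2423 came without the early knock-out replicate 2. DESeq2 gave 535 over time in the knock-out and 450 for the interaction, no filter on low counts gave 484 and 423, and fits of only the libraries compared gave 578 for the wild type over time and 728 for the knock-out. For clock genes that are not members, leaving out 1 library gave 10 to 17, 10 to 17, 1 to 4, 3 to 6 and 1 to 3 calls in the same order (15, 12, 3, 4 and 2 with all). Over time in the knock-out DESeq2 gave 10 of them and only the libraries compared 9, the latter gave 1 in the wild type, and no filter gave 4 for the interaction.

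The deviations of same-numbered libraries from their group means had r over 0.1 in 6 of 18 pairs (range -0.358 to 0.238), against 7 of 36 pairs with other numbers, and 5 of 12 libraries were closest to their own number. Over all genes the numbers were thus not taken to pair the libraries. However, FOS, FOSB, NR4A1, NR4A2 and DUSP1 were highest in the library numbered 1 of each of the 4 groups. The other immediate early and cAMP response genes were not. This was looked up after the values were seen. With a replicate block, 217 genes were called for the interaction and 246 for the knock-out over time, and clock genes that are not members had 1 call over time in the wild type. The block ended the late call of CIART, the wild-type calls of CRY1 (adjusted p 0.0735), HLF (0.0549) and RBM3 (0.0714) over time, the late call of CIRBP (0.0704) and the early call of WDR5 (0.0583), and BHLHE40 passed over time in the knock-out (-0.48, edgeR adjusted p 0.04). It changed no other call of a named gene.

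The E-box minus BMAL1 and NPAS2 difference kept its sign in the genotype comparisons, over time in the knock-out and in the interaction under all alternatives. It is built from member values that were known at the choice, so the kept sign is a description only. Leaving out 1 library gave 0.28 to 0.36, -0.51 to -0.46, 0.07 to 0.14, -0.74 to -0.67 and -0.85 to -0.77. With BMAL1 alone it was 0.46 at the early harvest, -0.05 over time in the wild type, -0.97 in the knock-out and -0.92 for the interaction; with NPAS2 alone it was 0.19, 0.25, -0.45 and -0.70. With the median of the 8 members it was -0.39 at the late harvest, 0.00 over time in the wild type and -0.69 for the interaction. The cause of these shifts was not tested. For the fold changes of the members, 882 values under alternatives moved by less than the spread between replicates and 8 by more. Leaving out 1 library can hardly move a group mean by that spread, so nothing is read from these counts.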
